A study of Mus musculus with 7 samples.

Results

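The comparison described here asks what the identity of the first ligand did to macrophages whose second ligand was the same. Mouse bone marrow derived macrophages (BMDM) that had been kept for 24 h with MDP and then given MDP for 3 h were set against BMDM kept for 24 h with Pam3CSK4 and then given MDP for 3 h. The 2 arrays are called MDP-MDP and Pam3CSK4-MDP, and each stands for 1 sample. All 18193 genes with a probe set of their own were compared, on 2 of the 7 arrays of the series. Each gene was read from the probe set, among those assigned to that gene alone, with the highest mean over the 7 arrays. That mean includes both arrays compared, but not the sign or size of their difference. Every difference is the log2 level of MDP-MDP minus that of Pam3CSK4-MDP, and a positive one means a higher level after MDP pretreatment.

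The remaining arrays served as points of reference. MDP-Pam3CSK4 and Pam3CSK4-Pam3CSK4 cells had the same first ligands for 24 h but Pam3CSK4 for the last 3 h. Naive cells had no ligand for 24 h and then MDP, Pam3CSK4 or nothing for 3 h, and the last of these are called unstimulated. The labels give the doses as 10 mg/ml for MDP and 1 mg/ml for Pam3CSK4, the same in both periods. These units are printed as the labels have them and may have lost a micro sign. They give neither the strain, the age nor the number of animals, and all cells are BMDM without a stated genetic change. With 1 array in each group no difference below has a replicate check, no test could be made, and precision is set by how few arrays there are.

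MDP, muramyl dipeptide, is a fragment of bacterial peptidoglycan that is sensed in the cytosol through Nod2. Pam3CSK4 is a synthetic triacylated lipopeptide that binds the heterodimer of Tlr1 and Tlr2 at the cell surface. Both routes lead to NF-kB and MAP kinases, and macrophages that have met such a ligand answer a later one differently, a state called tolerance when cytokine genes respond less. A first ligand also leaves lasting products behind, such as feedback inhibitors, acute phase proteins and interferon-induced proteins.

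The array medians were 5.48 for MDP-MDP and 5.53 for Pam3CSK4-MDP, within the 5.48 to 5.55 of all 7. Over all genes the median difference was −0.01, and the 5th and 95th percentiles were −0.52 and 0.66. None of 12 housekeeping genes was 2-fold apart, and their differences ran from −0.30 to 0.34 around a median of 0.08. All 12 macrophage markers stood above the array medians, at 9.67 to 14.90 on MDP-MDP and at 9.35 to 14.84 on Pam3CSK4-MDP. The log2 of their summed level was 17.34 on MDP-MDP and 17.38 on Pam3CSK4-MDP. Among these 12 markers 1 was at least 2-fold higher on MDP-MDP, at 1.46, and 1 at least 2-fold lower, at −1.07. Of the T and NK cell markers 4 of 10 stood above the array median on each array, with the highest at 7.62 on MDP-MDP and 7.49 on Pam3CSK4-MDP. The neutrophil markers summed to 13.23 on MDP-MDP and 13.74 on Pam3CSK4-MDP on the log2 scale, and 8 of 10 were above the array median on each. Of these, the calprotectin subunit gene S100a8 stood at 11.34 on MDP-MDP and 12.15 on Pam3CSK4-MDP. The granule enzyme gene Mpo was 1 of the 2 below the array median on both, at 5.38 on MDP-MDP and 5.48 on Pam3CSK4-MDP. The only neutrophil marker past 2-fold was on the other side, the lactoferrin gene Ltf, at 8.15 on MDP-MDP and 6.88 on Pam3CSK4-MDP, and 3 of the 10 lay on the higher side. The stromal markers summed to 9.59 on MDP-MDP and 10.07 on Pam3CSK4-MDP, with 3 of 9 above the array median on each. Of these 9 stromal markers 1 was at least 2-fold lower on MDP-MDP, at −2.07, and none was at least 2-fold higher. Among the B cell markers 4 of 7 stood above the median on each array, among the dendritic cell markers 6 of 9 on MDP-MDP and 5 of 9 on Pam3CSK4-MDP, and among the mast and erythroid cell markers 2 of 6 on each. The part of other cells in the differences below was not tested.

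At 2-fold, 374 genes were higher (2.06%) and 348 lower (1.91%) on MDP-MDP than on Pam3CSK4-MDP, 722 in all (3.97%). The counts were near each other but the sizes were not. Only 5 genes were at least 8-fold higher (0.0275%) against 37 that were at least 8-fold lower (0.203%), with a value below its array median counted as that median. At that bound 352 genes were at least 2-fold higher (1.93%) and 332 lower (1.82%). Among the 15 genes furthest on the lower side were the acute phase genes Lcn2, Cfb, Saa3 and Hp, the matrix and plasmin genes Lox, Serpinb2 and Mmp14, and the cytokine genes Il6 and Il1a. Among the 15 furthest on the higher side were the mitotic genes Ccnb2 and Cenpa, the lectin gene Clec10a and the receptor genes Cxcr4 and Gpr183. Of the gene lists, that of interferon-induced GTPases had the lowest median and that of the cell cycle the highest. In bulk cultures fewer cells that express a gene and less of its RNA per cell cannot be told apart.

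Marco, a scavenger receptor that binds bacteria, was the gene furthest apart. It stood at 7.40 on MDP-MDP and at 13.43 on Pam3CSK4-MDP, a difference of −6.03, or 65.5-fold lower after MDP. It stood at 9.21 on MDP-Pam3CSK4, 13.46 on Pam3CSK4-Pam3CSK4, 7.06 in naive cells with MDP, 8.66 in naive cells with Pam3CSK4 and 6.21 in unstimulated cells. Both arrays with Pam3CSK4 as the first ligand were thus near the top of the scale, and both naive stimulated arrays were far below them. A second probe set of Marco gave −6.87.

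The acute phase and antimicrobial genes held several of the steepest differences. Of 23 measured, 9 were at least 2-fold lower, none was higher, and the median was −0.63. Lcn2, which encodes a lipocalin that captures bacterial siderophores, had 8.01 on MDP-MDP and 13.32 on Pam3CSK4-MDP, 39.7-fold lower. Its other levels were 10.63 on MDP-Pam3CSK4, 13.26 on Pam3CSK4-Pam3CSK4, 7.50 and 10.06 in naive cells with MDP and with Pam3CSK4, and 7.83 in unstimulated cells. MDP-MDP cells therefore held Lcn2 at about the unstimulated level. Cfb, complement factor B of the alternative pathway, stood at 5.81 on MDP-MDP against 10.91 on Pam3CSK4-MDP (34.2-fold lower), 8.19 on MDP-Pam3CSK4, 10.83 on Pam3CSK4-Pam3CSK4, 5.58 and 6.56 in naive cells with MDP and with Pam3CSK4, and 5.20 in unstimulated cells.

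Saa3, a serum amyloid A made by macrophages, differed from Lcn2 in that its MDP-MDP level stood well above the unstimulated one. It read 9.98 on MDP-MDP, 14.63 on Pam3CSK4-MDP, 14.05 on MDP-Pam3CSK4, 14.79 on Pam3CSK4-Pam3CSK4, 9.40 in naive cells with MDP, 13.80 in naive cells with Pam3CSK4 and 6.78 in unstimulated cells. The gap between the pretreatments was 25.2-fold. Hp, the haemoglobin scavenger haptoglobin, was 19.0-fold lower (7.33 on MDP-MDP against 11.58 on Pam3CSK4-MDP), and Slpi, a secreted protease inhibitor, 8.42-fold lower (8.30 on MDP-MDP against 11.37 on Pam3CSK4-MDP). Saa1 was below the array median on MDP-MDP and was at least 4.19-fold lower. Acod1, the enzyme that makes itaconate, had 11.24 on MDP-MDP and 14.02 on Pam3CSK4-MDP, 6.87-fold lower. Saa2 lay below the median on both arrays and is given no fold.

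Genes that act on the matrix, on plasmin and on clotting split in both directions, with 9 of 27 lower, 3 higher and a median of 0.02. Lox, the lysyl oxidase that crosslinks collagen, had 6.12 on MDP-MDP and 11.47 on Pam3CSK4-MDP, 40.7-fold lower, with 8.85 on MDP-Pam3CSK4, 11.49 on Pam3CSK4-Pam3CSK4, 6.29 and 8.13 in naive cells with MDP and with Pam3CSK4, and 6.38 in unstimulated cells. Its MDP-MDP level was the lowest of the 7. Serpinb2, an inhibitor of plasminogen activators, was 38.3-fold lower (6.44 on MDP-MDP against 11.70 on Pam3CSK4-MDP), and Plau, which encodes the plasminogen activator urokinase, stood on the other side at 7.95 on MDP-MDP and 5.45 on Pam3CSK4-MDP, at least 5.38-fold higher. The protease genes Mmp14 and Mmp9 were lower, by 18.6-fold (8.26 on MDP-MDP against 12.47 on Pam3CSK4-MDP) and 8.77-fold (6.30 on MDP-MDP against 9.44 on Pam3CSK4-MDP). A pair of anticoagulant receptor genes differed in opposite directions. Procr, the endothelial protein C receptor, was 10.1-fold lower (7.90 on MDP-MDP against 11.24 on Pam3CSK4-MDP), and Thbd, thrombomodulin, 3.00-fold higher (9.65 on MDP-MDP against 8.07 on Pam3CSK4-MDP).

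**Figure D1:**
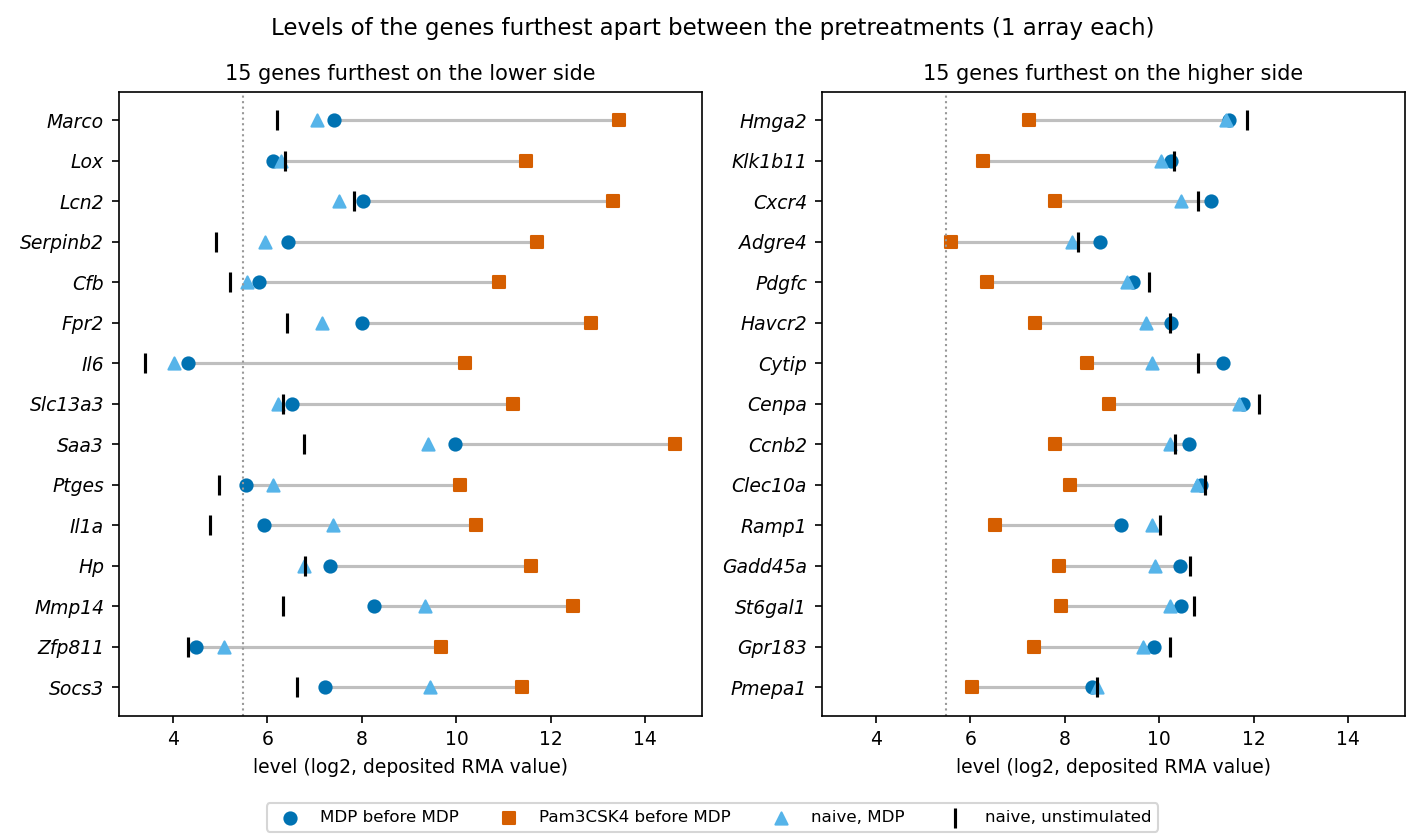
Levels (log2, deposited RMA values, horizontal axis) of the 15 genes furthest on the lower side (left panel) and the 15 furthest on the higher side (right panel), with differences ranked from the array median where a value lay below it. Circles are MDP-MDP, squares Pam3CSK4-MDP, triangles naive cells with MDP, black bars unstimulated cells, each 1 array, and the dotted line is the lowest array median, 5.48. For the right panel's genes the circle lies near the black bar and the square far to its left, as for Hmga2 with the circle at 11.47, the square at 7.24 and the bar at 11.85. In the left panel the square stands apart to the right. The circles of Saa3, Mmp14, Fpr2, Marco and Il1a, among others, also lie to the right of their black bars.

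Cytokine genes were lower or nearly level on MDP-MDP. Of 24 measured, 11 were at least 2-fold lower and none higher, with a median of −0.83 against −0.01 over all genes. Il6, the pyrogenic cytokine that drives the acute phase response, had 4.31 on MDP-MDP, below the array median, and 10.18 on Pam3CSK4-MDP, which makes it at least 25.9-fold lower. On the remaining arrays Il6 stood at 10.79 on MDP-Pam3CSK4, 9.12 on Pam3CSK4-Pam3CSK4, 4.01 in naive cells with MDP, 9.84 in naive cells with Pam3CSK4 and 3.41 in unstimulated cells. The 3 arrays that had seen MDP alone or nothing were all below 5.48, and the 4 arrays that had seen Pam3CSK4 at either time were all high.

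Il1a and Il1b, the agonists of the interleukin 1 receptor, were 22.4-fold and 12.3-fold lower. Il1b had 8.83 on MDP-MDP and 12.45 on Pam3CSK4-MDP, 14.19 on MDP-Pam3CSK4, 12.11 on Pam3CSK4-Pam3CSK4, 9.73 and 14.17 in naive cells with MDP and with Pam3CSK4, and 6.67 in unstimulated cells. Il1a had 5.92 on MDP-MDP and 10.41 on Pam3CSK4-MDP, 12.31 on MDP-Pam3CSK4, 10.09 on Pam3CSK4-Pam3CSK4, 7.38 and 12.04 in naive cells with MDP and with Pam3CSK4, and 4.79 in unstimulated cells. For both genes the level with MDP after MDP was under the level with MDP in naive cells, and the level with MDP after Pam3CSK4 was above it. Tnf, the first-wave inflammatory cytokine, stood at 9.43 on MDP-MDP, beside 9.32 in unstimulated cells and 10.23 in naive cells with MDP, and at 11.54 on Pam3CSK4-MDP (4.32-fold lower). Its levels were 12.92 on MDP-Pam3CSK4, 11.28 on Pam3CSK4-Pam3CSK4 and 12.89 in naive cells with Pam3CSK4.

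The anti-inflammatory cytokine gene Il10 moved with the inflammatory ones and was 2.56-fold lower, at 7.56 on MDP-MDP and 8.92 on Pam3CSK4-MDP. Ifnb1, interferon beta, was below the array median on MDP-MDP and at least 3.45-fold lower (7.27 on Pam3CSK4-MDP). Tnfsf10, the death ligand Trail, was 2.75-fold lower by its brightest probe set, but the mean of its probe sets gave −0.85. Il15 and Ebi3 were short of 2-fold at −0.99 and −0.66. Il12b, a subunit of interleukins 12 and 23, was below the median on both arrays and reached 6.95 on MDP-Pam3CSK4.

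Chemokine genes showed the lowest median of the secreted groups, −1.12, with 12 of 23 lower and 1 higher. The ligands of the neutrophil receptor Cxcr2 led. Cxcl2 had 10.02 on MDP-MDP and 13.13 on Pam3CSK4-MDP (8.64-fold lower), 13.71 on MDP-Pam3CSK4, 13.03 on Pam3CSK4-Pam3CSK4, 10.95 and 13.61 in naive cells with MDP and with Pam3CSK4, and 8.53 in unstimulated cells. Cxcl3 was 11.1-fold lower (8.78 on MDP-MDP against 12.24 on Pam3CSK4-MDP), Cxcl1 6.56-fold lower (7.10 on MDP-MDP against 9.81 on Pam3CSK4-MDP) and Cxcl5 at least 4.41-fold lower. Of the ligands that attract monocytes and T cells, Ccl8 was 6.07-fold lower (9.65 on MDP-MDP against 12.25 on Pam3CSK4-MDP), Ccl5 5.84-fold lower (11.42 on MDP-MDP against 13.96 on Pam3CSK4-MDP) and Cxcl10 3.69-fold lower (11.38 on MDP-MDP against 13.27 on Pam3CSK4-MDP). Ccl7, high on every array, was short of 2-fold at −0.59, and so was Ccl22 at −0.65.

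The promoters of Il6 and Cxcl2 are shown as examples of 1 cytokine gene and 1 chemokine gene whose windows hold a kB site, written as GGG, any 2 bases and TTTCC and searched on both strands. The windows are from RefSeq, build GRCm38.p6, from 250 bases before to 50 after the start of the gene, in its direction. Capitals mark the kB sites and, in Il6, the AP-1 site TGANTCA. Il6 is at chr5:30012864-30013163 on the plus strand and Cxcl2 at chr5:90903649-90903948 on the plus strand.
Il6: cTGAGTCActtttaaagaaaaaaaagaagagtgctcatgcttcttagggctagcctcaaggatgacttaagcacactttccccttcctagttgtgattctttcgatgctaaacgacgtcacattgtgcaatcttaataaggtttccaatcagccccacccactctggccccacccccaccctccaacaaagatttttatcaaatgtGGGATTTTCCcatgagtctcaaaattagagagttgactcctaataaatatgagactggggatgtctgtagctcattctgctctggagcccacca
Cxcl2: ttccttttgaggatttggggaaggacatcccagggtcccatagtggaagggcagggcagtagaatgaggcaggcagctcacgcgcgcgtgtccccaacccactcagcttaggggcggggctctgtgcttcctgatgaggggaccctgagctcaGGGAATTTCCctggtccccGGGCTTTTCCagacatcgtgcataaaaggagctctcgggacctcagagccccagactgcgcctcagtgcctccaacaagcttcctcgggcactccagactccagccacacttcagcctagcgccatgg
The kB site of Il6 begins 44 bases before the start, and those of Cxcl2 begin 97 and 78 bases before it, with no overlap between sites. Such a site occurred in 1.89% of the 14452 measured genes with a promoter window, in 5.56% of the 270 lower genes that have one, in 2.34% of the 299 higher genes that have one, and in 4 of 15 chemokine genes and 3 of 18 cytokine genes. The AP-1 letters occurred in 7.54% of all, 9.63% of the lower and 8.03% of the higher genes. A match of letters is a description and not a binding site.

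Interferon-stimulated antiviral genes were lower on MDP-MDP throughout the list. All 28 measured genes had a negative difference, 14 were at least 2-fold lower, none was higher, and the median was −1.03. Relative to unstimulated cells the list median was 1.09 on MDP-MDP and 2.26 on Pam3CSK4-MDP, so both arrays held these genes above the unstimulated level. Oasl1, an oligoadenylate synthetase-like protein, had 9.85 on MDP-MDP and 12.40 on Pam3CSK4-MDP (5.83-fold lower), 10.72 on MDP-Pam3CSK4, 12.16 on Pam3CSK4-Pam3CSK4, 9.30 and 9.03 in naive cells with MDP and with Pam3CSK4, and 8.07 in unstimulated cells. The antiviral GTPases Mx1 and Mx2 were 4.65-fold (9.85 on MDP-MDP against 12.07 on Pam3CSK4-MDP) and 4.55-fold (7.87 on MDP-MDP against 10.05 on Pam3CSK4-MDP) lower. Isg20, an exonuclease, was 4.31-fold lower (9.46 on MDP-MDP against 11.57 on Pam3CSK4-MDP). Zbp1, a sensor of nucleic acids, and Eif2ak2, the kinase PKR, were just short of 2-fold at −0.99 and −0.99.

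Ifit1, which binds viral RNA caps, read 11.77 on MDP-MDP, 13.63 on Pam3CSK4-MDP, 13.03 on MDP-Pam3CSK4, 13.36 on Pam3CSK4-Pam3CSK4, 12.50 in naive cells with MDP, 12.20 in naive cells with Pam3CSK4 and 10.70 in unstimulated cells, 3.61-fold lower between the pretreatments. Its level on MDP-MDP was under that in naive cells with MDP, whereas the paralogue Ifit2 had 12.36 on MDP-MDP and 13.97 on Pam3CSK4-MDP beside 12.15 in naive cells with MDP. Irf7, the factor that amplifies interferon genes, stood at 12.46 on MDP-MDP and 13.35 on Pam3CSK4-MDP, short of 2-fold. Its 4 pretreated arrays lay between 12.46 and 13.35 and its 3 naive arrays between 10.73 and 10.81, so Irf7 differed by the 24 h period and hardly by the last ligand.

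The GTPases that interferon gamma and other interferons induce against intracellular microbes had the same form. All 9 measured were on the lower side, 5 at least 2-fold, with a median of −1.20. Gbp6 was 4.82-fold lower (9.14 on MDP-MDP against 11.41 on Pam3CSK4-MDP), Iigp1 4.38-fold (8.83 on MDP-MDP against 10.96 on Pam3CSK4-MDP), and Igtp, Irgm2 and Ifi47 between 2.29-fold and 2.62-fold lower. Irgm1 was short of 2-fold at −0.84 and Gbp3 at −0.92. Among 17 STAT and IRF factors 5 were lower and none higher (median −0.21). These were Batf (3.32-fold), Stat2, a subunit of the interferon-activated complex (3.06-fold, 8.69 on MDP-MDP against 10.31 on Pam3CSK4-MDP), Batf2 (2.89-fold), Irf1 (2.75-fold) and Stat4, which at −1.02 lay close to the threshold and at −0.90 short of it with 32 added to the linear values.

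The promoters of Ifit1 and of Socs1, an inhibitor of cytokine signalling described with the feedback genes, are printed because their windows each hold 2 copies of the core of the interferon-stimulated response element, written as GAAA, any 2 bases and GAAA and searched on both strands. They are from RefSeq, build GRCm38.p6, with the same bounds as above, and capitals mark the copies. Ifit1 is at chr19:34640639-34640938 on the plus strand, where both copies lie on the opposite strand and read as the reverse complement. Socs1 is at chr16:10785487-10785786 on the minus strand, where the copies share their middle GAAA.
Ifit1: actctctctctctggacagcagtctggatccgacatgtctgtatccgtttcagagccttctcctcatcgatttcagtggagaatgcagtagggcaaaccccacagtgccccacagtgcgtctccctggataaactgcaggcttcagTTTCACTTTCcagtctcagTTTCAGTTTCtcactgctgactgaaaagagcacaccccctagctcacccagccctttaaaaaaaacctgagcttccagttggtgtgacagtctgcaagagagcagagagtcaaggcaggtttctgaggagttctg
Socs1: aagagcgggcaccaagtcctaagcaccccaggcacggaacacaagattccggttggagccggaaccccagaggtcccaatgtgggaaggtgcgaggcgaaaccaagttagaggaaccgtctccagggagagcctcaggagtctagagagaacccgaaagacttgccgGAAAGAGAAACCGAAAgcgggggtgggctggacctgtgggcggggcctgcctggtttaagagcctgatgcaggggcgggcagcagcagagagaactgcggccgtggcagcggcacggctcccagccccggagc
The copies of Ifit1 begin 104 and 85 bases before the start of the gene and those of Socs1 83 and 77 bases before it. The element occurred in 3.63% of all 14452 genes with a window, in 10.7% of the lower genes, in 3.01% of the higher genes, in 10 of 18 interferon-stimulated antiviral genes (55.6%) and in 6 of 7 of the GTPase genes (85.7%). The STAT letters TTCNNNGAA occurred in 8.57% of all genes, in 35 of 270 lower and 17 of 299 higher genes. The CRE, TGACGTCA, occurred in 2.92% of all genes, in 2.22% of the lower and in 1.34% of the higher genes.

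**Figure D2:**
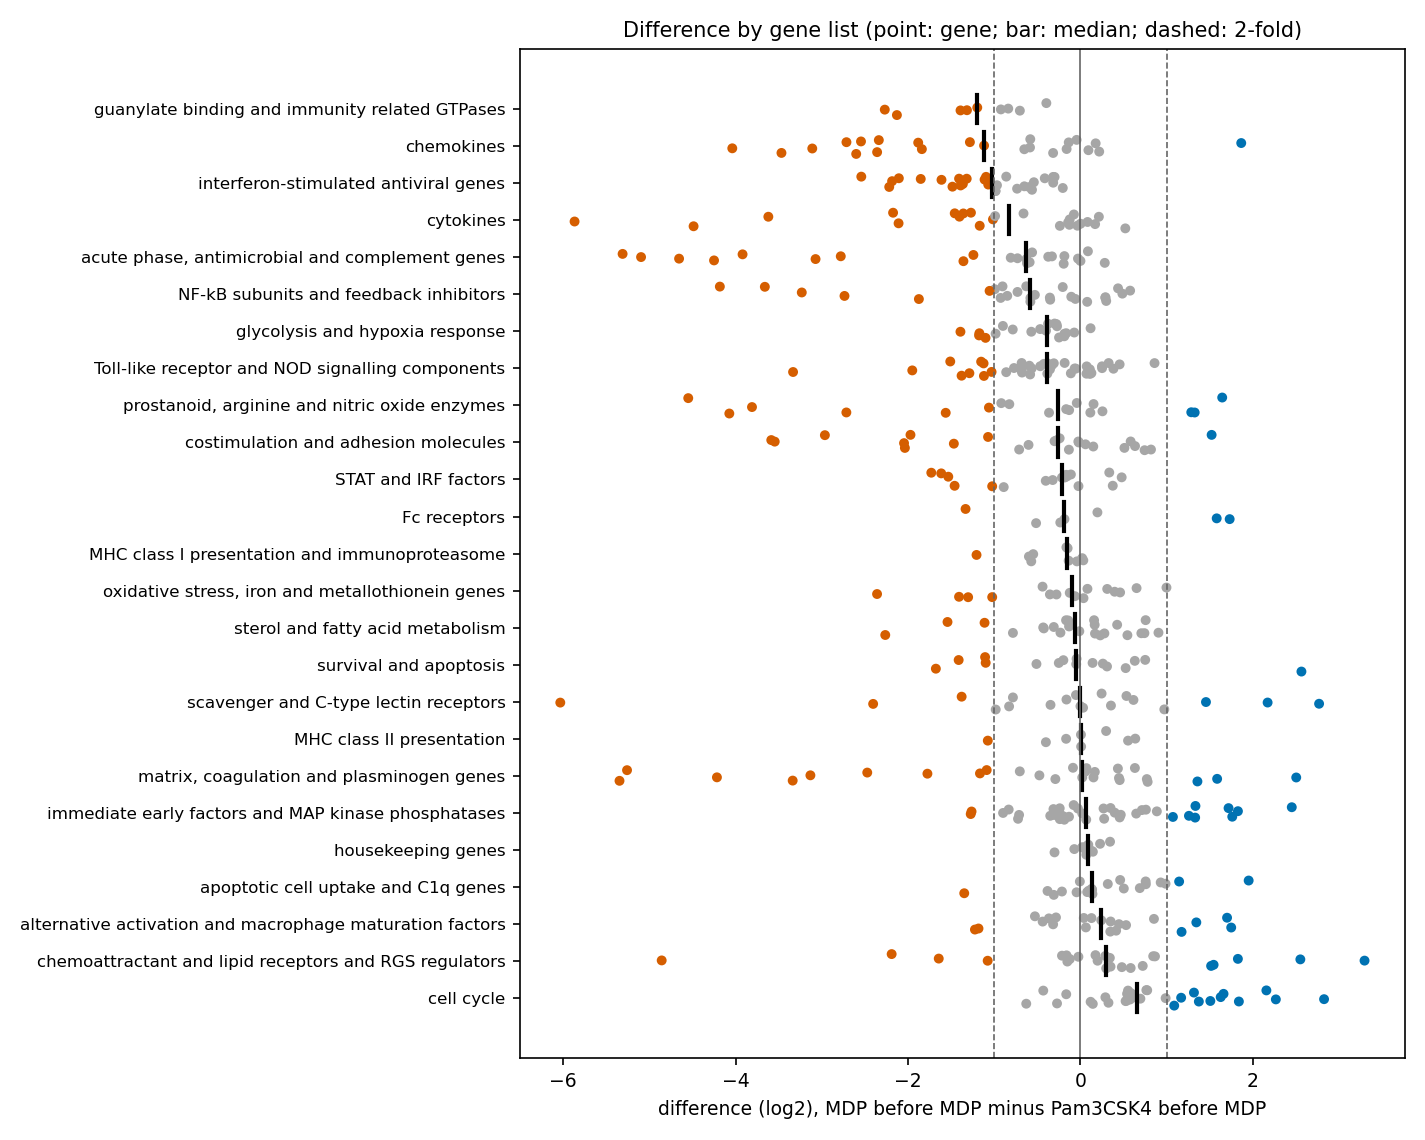
Differences between the pretreatments (log2, MDP-MDP minus Pam3CSK4-MDP, horizontal axis) for every measured gene of the 25 gene lists, 1 point a gene, with lists ordered by median (black bar) from lowest at the top. Dashed lines mark 2-fold. Orange points are at least 2-fold lower and blue ones at least 2-fold higher on MDP-MDP. The GTPase, chemokine and interferon lists have medians of −1.20, −1.12 and −1.03, and the cell cycle list stands at the other end with 0.66.

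In the list of NF-kB subunits and feedback inhibitors 6 of 27 genes were lower and none higher, 7 lay on the higher side short of 2-fold, and the median was −0.58. Socs3, which blocks signalling by interleukin 6 type cytokines, had 7.21 on MDP-MDP and 11.40 on Pam3CSK4-MDP (18.2-fold lower), 13.47 on MDP-Pam3CSK4, 11.19 on Pam3CSK4-Pam3CSK4, 9.45 and 13.43 in naive cells with MDP and with Pam3CSK4, and 6.63 in unstimulated cells. Its 3 probe sets gave −4.50 to −4.18. Naive cells given MDP thus held more Socs3 than MDP-MDP cells and less than Pam3CSK4-MDP cells. Nfkbiz, a nuclear IkB protein needed for Il6 transcription, was 12.7-fold lower (8.54 on MDP-MDP against 12.21 on Pam3CSK4-MDP), and Socs1 6.67-fold lower (7.26 on MDP-MDP against 10.00 on Pam3CSK4-MDP).

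Irak3, the kinase-like inhibitor IRAK-M of Toll-like receptor signalling, had 8.60 on MDP-MDP and 11.83 on Pam3CSK4-MDP, 10.39 on MDP-Pam3CSK4, 11.86 on Pam3CSK4-Pam3CSK4, 8.97 and 10.08 in naive cells with MDP and with Pam3CSK4, and 8.50 in unstimulated cells. It was 9.40-fold lower, and MDP-MDP cells had it at the unstimulated level. Zc3h12a, a ribonuclease that degrades cytokine mRNAs, was 3.67-fold lower (8.04 on MDP-MDP against 9.91 on Pam3CSK4-MDP) and Tnip1 2.08-fold lower. The classic inhibitors Nfkbia and Tnfaip3 were short of 2-fold at −0.53 and −0.93, and the subunit gene Relb at −0.99. The 5 probe sets of Nfkbia above the array median gave −1.37 to −0.53, so the value used is the smallest of them.

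Among 41 components of Toll-like receptor and NOD signalling 9 were lower and none higher, with a median of −0.38. Traf1, an adaptor of TNF receptors, was 10.1-fold lower (6.74 on MDP-MDP against 10.07 on Pam3CSK4-MDP) and Map3k8, the kinase Tpl2 upstream of Erk, 3.87-fold lower (7.68 on MDP-MDP against 9.63 on Pam3CSK4-MDP). Of the sensors, Nod1 was 2.60-fold lower (7.99 on MDP-MDP against 9.37 on Pam3CSK4-MDP) and Tlr1, a partner of the Pam3CSK4 receptor, 2.18-fold lower (9.88 on MDP-MDP against 11.01 on Pam3CSK4-MDP), while Tlr2 at −0.86 and the lipopolysaccharide receptor Tlr4 at 0.86 were short of 2-fold on opposite sides. Nlrc5, a regulator of MHC class I genes, was 2.44-fold and Traf2 2.22-fold lower. Birc3, a ubiquitin ligase that acts on Ripk2, was 2.85-fold lower by the probe set used, but its other probe set gave 0.01.

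Enzymes of prostanoid, arginine and nitric oxide metabolism were lower for 6 of 18 genes and higher for 3, with a median of −0.27. Ptgs2, the inducible cyclooxygenase, stood at 5.38 on MDP-MDP, just below the array median, and at 9.19 on Pam3CSK4-MDP, at least 13.1-fold lower. It read 11.24 on MDP-Pam3CSK4, 8.59 on Pam3CSK4-Pam3CSK4, 4.94 and 10.78 in naive cells with MDP and with Pam3CSK4, and 4.50 in unstimulated cells. Ptges, the prostaglandin E synthase that acts after it, was 23.4-fold lower (5.54 on MDP-MDP against 10.09 on Pam3CSK4-MDP). Its MDP-MDP level was close to the array median of 5.48, so the fold is limited by background signal. Ltc4s, leukotriene C4 synthase of the neighbouring lipid pathway, was 3.13-fold higher (9.19 on MDP-MDP against 7.55 on Pam3CSK4-MDP).

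Arg1, which splits arginine into ornithine and urea, was high where Pam3CSK4 had been present for 24 h. It had 7.06 on MDP-MDP, 11.13 on Pam3CSK4-MDP, 5.83 on MDP-Pam3CSK4, 10.90 on Pam3CSK4-Pam3CSK4, 5.79 and 5.82 in naive cells with MDP and with Pam3CSK4, and 5.67 in unstimulated cells. The difference was 16.8-fold, and apart from MDP-MDP the arrays without Pam3CSK4 in the first 24 h lay between 5.67 and 5.83. Nos2, the enzyme that competes for arginine, lay between 5.69 and 7.76 on the 7 arrays and was 2.37-fold lower (5.69 on MDP-MDP against 6.94 on Pam3CSK4-MDP), short of 2-fold with 32 added to the linear values (−0.88). The amino acid transporter genes Slc7a11 and Slc7a2 were at least 5.68-fold and 2.95-fold lower, the second short of 2-fold by the mean of its probe sets (−0.94).

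Costimulation and adhesion molecules were lower for 8 of 24 genes and higher for 1, with a median of −0.26. Cd69, an activation marker, was −3.59 on the log2 scale (7.76 on MDP-MDP against 11.35 on Pam3CSK4-MDP), and Cd200, an inhibitory ligand, 11.7-fold lower (5.66 on MDP-MDP against 9.21 on Pam3CSK4-MDP). The MDP-MDP level of Cd200 was near the array median, and with 32 added to the linear values its difference was −2.92. Cd274, the ligand PD-L1 of the T cell checkpoint, was 7.81-fold lower (9.27 on MDP-MDP against 12.23 on Pam3CSK4-MDP), and the integrin gene Itgal and the receptor gene Cd40 were 4.13-fold and 4.10-fold lower. Cd83, a maturation marker, was the exception at 2.87-fold higher. It read 10.32 on MDP-MDP, 8.80 on Pam3CSK4-MDP, 13.04 on MDP-Pam3CSK4, 8.94 on Pam3CSK4-Pam3CSK4, 11.79 and 13.16 in naive cells with MDP and with Pam3CSK4, and 10.18 in unstimulated cells. On both arrays with Pam3CSK4 for 24 h Cd83 was below the unstimulated level. The ligands Cd80 and Cd86 of Cd28 were short of 2-fold at 0.74 and 0.82 by the probe sets used. Cd86 was past 2-fold by the mean of its probe sets (1.10). Cd80 was past it without less specific probe sets (1.28), while the mean of its probe sets was 0.64.

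Pattern recognition receptors of the scavenger and lectin families divided into 3 lower and 3 higher of 19 genes, with a median of 0.00. Beside Marco, the lower ones were Clec4e, the receptor Mincle for mycobacterial glycolipid (5.30-fold, 11.13 on MDP-MDP against 13.54 on Pam3CSK4-MDP), and Clec4a2 (2.60-fold). On the higher side, Clec7a, the beta-glucan receptor dectin-1, had 12.28 on MDP-MDP and 10.11 on Pam3CSK4-MDP (4.50-fold higher), 11.97 on MDP-Pam3CSK4, 10.01 on Pam3CSK4-Pam3CSK4, 12.30 and 12.07 in naive cells with MDP and with Pam3CSK4, and 12.09 in unstimulated cells. Clec10a, a galactose-type lectin, was 6.81-fold higher (10.88 on MDP-MDP against 8.11 on Pam3CSK4-MDP), and the mannose receptor gene Mrc1 2.74-fold higher (12.58 on MDP-MDP against 11.12 on Pam3CSK4-MDP). For these 3 genes every array without Pam3CSK4 in the first 24 h stood near the unstimulated level. The Fc receptor list held 2 higher genes, Fcrls (3.32-fold) and the recycling receptor gene Fcgrt (2.99-fold), and 1 lower, the inhibitory receptor gene Fcgr2b (2.52-fold), of 7, and Fcgr2b was short of 2-fold without less specific probe sets (−0.45).

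Chemoattractant and lipid receptor genes were higher for 5 and lower for 4 of 25 (median 0.30). Cxcr4, the receptor of the retention chemokine Cxcl12, had 11.10 on MDP-MDP and 7.80 on Pam3CSK4-MDP, 7.92 on MDP-Pam3CSK4, 8.45 on Pam3CSK4-Pam3CSK4, 10.45 and 7.89 in naive cells with MDP and with Pam3CSK4, and 10.81 in unstimulated cells, 9.82-fold higher. All 4 arrays with Pam3CSK4 at either time were low, and the 3 arrays without it were high. Gpr183, an oxysterol receptor, was 5.86-fold (9.90 on MDP-MDP against 7.34 on Pam3CSK4-MDP), the monocyte chemokine receptor gene Ccr2 3.55-fold (10.24 on MDP-MDP against 8.41 on Pam3CSK4-MDP) and the cannabinoid receptor gene Cnr2 2.92-fold higher (8.97 on MDP-MDP against 7.43 on Pam3CSK4-MDP). The 4 probe sets of Ccr2 above the array median gave 0.41 to 2.16. On the lower side Fpr2, a formyl peptide receptor, was 29.0-fold (a difference of −4.86), Ccrl2 4.56-fold and the fatty acid receptor gene Gpr84 3.13-fold lower.

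The gene with the largest positive difference was Hmga2, which encodes an architectural chromatin protein typical of growing and immature cells. It had 11.47 on MDP-MDP and 7.24 on Pam3CSK4-MDP (18.8-fold higher), 9.60 on MDP-Pam3CSK4, 7.39 on Pam3CSK4-Pam3CSK4, 11.42 and 9.78 in naive cells with MDP and with Pam3CSK4, and 11.85 in unstimulated cells. The 3 probe sets above the array median gave 3.89 to 4.23. Klk1b11, a kallikrein-family serine protease, was 15.7-fold higher (10.24 on MDP-MDP against 6.27 on Pam3CSK4-MDP), and unlike Hmga2 it stayed near its unstimulated level of 10.30 in naive cells given Pam3CSK4 for 3 h (9.88). Kallikreins are a family of close paralogues, so probes may be shared among them. Adgre4, an adhesion receptor of the family of the macrophage marker Adgre1, was 8.93-fold higher (8.74 on MDP-MDP against 5.59 on Pam3CSK4-MDP), and Pdgfc, a platelet-derived growth factor, 8.52-fold higher (9.44 on MDP-MDP against 6.35 on Pam3CSK4-MDP).

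Further genes of this end were receptors and signalling proteins. Havcr2, the inhibitory receptor Tim-3, was 7.39-fold higher (10.26 on MDP-MDP against 7.37 on Pam3CSK4-MDP). Cytip, a regulator of leukocyte adhesion, was 7.33-fold higher (11.35 on MDP-MDP against 8.47 on Pam3CSK4-MDP). St6gal1, a sialyltransferase, was 5.88-fold (10.47 on MDP-MDP against 7.91 on Pam3CSK4-MDP) and Pmepa1, an inhibitor of TGF-beta signalling, 5.77-fold higher (8.57 on MDP-MDP against 6.04 on Pam3CSK4-MDP). Ramp1, the accessory chain of the receptor for the neuropeptide CGRP, was 6.39-fold higher by 1 probe set, while the other gave 0.00. At the lower end, the dicarboxylate transporter gene Slc13a3 was 25.5-fold lower (6.52 on MDP-MDP against 11.19 on Pam3CSK4-MDP) and the zinc finger gene Zfp811 at least 18.3-fold lower.

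Cell cycle genes had the highest median of all lists, 0.66, with 11 of 30 at least 2-fold higher, none lower and 26 on the higher side. The differences were largest for mitotic genes. Ccnb2, a B-type cyclin, had 10.62 on MDP-MDP and 7.80 on Pam3CSK4-MDP (7.09-fold higher), 10.42 on MDP-Pam3CSK4, 7.77 on Pam3CSK4-Pam3CSK4, 10.22 and 9.99 in naive cells with MDP and with Pam3CSK4, and 10.34 in unstimulated cells. Only the arrays with Pam3CSK4 for 24 h were low. Cdc20, the activator of the anaphase-promoting complex, was 4.81-fold higher (10.52 on MDP-MDP against 8.26 on Pam3CSK4-MDP), the mitotic kinase gene Plk1 4.46-fold (9.62 on MDP-MDP against 7.46 on Pam3CSK4-MDP), and the proliferation marker Mki67 3.09-fold (10.36 on MDP-MDP against 8.73 on Pam3CSK4-MDP). Birc5, the survivin gene, was 3.16-fold higher (10.58 on MDP-MDP against 8.92 on Pam3CSK4-MDP), and Aurka, another mitotic kinase, 3.57-fold, though the mean of its probe sets was 0.94.

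For these genes MDP-MDP cells stood above unstimulated cells, as Plk1 at 9.62 on MDP-MDP and 8.85 in unstimulated cells shows, and Pam3CSK4-MDP cells below them. Over the cell cycle list the median against unstimulated cells was 0.45 on MDP-MDP and −0.23 on Pam3CSK4-MDP. Cenpa, the histone of centromeres, was 7.22-fold higher (11.78 on MDP-MDP against 8.93 on Pam3CSK4-MDP) by the probe set used and 0.45 by the other. Gadd45a, a growth arrest and DNA damage gene, was also higher, 5.91-fold (10.43 on MDP-MDP against 7.87 on Pam3CSK4-MDP), while its paralogue Gadd45b was 2.15-fold lower (10.20 on MDP-MDP against 11.30 on Pam3CSK4-MDP). The 3 probe sets of Gadd45b above the array median gave −1.31 to −0.62. Myc and Aurkb were short of 2-fold at 0.77 and 0.99.

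The promoter of Ccnb2 is shown for the CCAAT boxes and the TTTGAA element, the core of the cell cycle homology region, that mitotic promoters are known for. Both motifs were chosen after the values had been seen and searched on both strands. The window is from RefSeq, build GRCm38.p6, at chr9:70421505-70421804 on the minus strand, and capitals mark the matches, which do not overlap.
Ccnb2: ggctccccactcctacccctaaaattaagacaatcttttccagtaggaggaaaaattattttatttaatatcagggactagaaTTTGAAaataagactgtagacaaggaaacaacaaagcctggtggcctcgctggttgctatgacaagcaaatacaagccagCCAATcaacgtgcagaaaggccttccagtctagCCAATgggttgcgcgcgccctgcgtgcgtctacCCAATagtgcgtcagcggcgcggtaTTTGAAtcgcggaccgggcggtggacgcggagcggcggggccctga
The CCAAT boxes begin 87, 54 and 21 bases before the start of the gene. CCAAT occurred in 42.0% of all 14452 genes, in 48.2% of the higher and 43.0% of the lower genes, and in 19 of 24 cell cycle genes. TTTGAA occurred in 15.7% of all, 24.1% of the higher and 14.4% of the lower genes, and in 8 of 24 cell cycle genes.

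Immediate early factors and MAP kinase phosphatases were at least 2-fold higher for 8 of 37 genes and lower for 2, around a median of 0.07. Of all 37, 20 lay on the higher side and 17 on the lower. Egr2, a zinc finger factor, had 7.76 on MDP-MDP and 5.31 on Pam3CSK4-MDP, at least 4.72-fold higher, with 9.11 on MDP-Pam3CSK4, 5.17 on Pam3CSK4-Pam3CSK4, 8.20 and 9.20 in naive cells with MDP and with Pam3CSK4, and 7.47 in unstimulated cells. Only the Pam3CSK4-pretreated arrays were below the array median. Dusp5 and Dusp6, phosphatases that switch off Erk, were 3.55-fold (9.28 on MDP-MDP against 7.46 on Pam3CSK4-MDP) and 2.52-fold (11.99 on MDP-MDP against 10.66 on Pam3CSK4-MDP) higher. Fosl2, an AP-1 subunit, was 3.39-fold, the RNA-binding protein gene Mex3b 3.29-fold and the nuclear receptor gene Nr4a1 2.52-fold higher, and Egr1 was short of 2-fold at 0.89. A second probe set of Fosl2 gave 0.24.

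Factors of alternative activation and macrophage maturation were higher for 4 and lower for 2 of 21 (median 0.24). Pparg, a lipid-sensing nuclear receptor, was 3.36-fold higher (8.81 on MDP-MDP against 7.06 on Pam3CSK4-MDP), Mgl2, a lectin of alternatively activated macrophages, at least 2.33-fold, and Bhlhe40 2.54-fold. Cebpd, a factor induced in inflammation, was 2.34-fold lower by its brightest probe set, with −0.78 as the mean of its probe sets, and Csf3r, the receptor for G-CSF, 2.27-fold lower. Of 21 genes for the uptake of apoptotic cells 2 were higher, the bridging ligand gene Gas6 (3.87-fold, 12.98 on MDP-MDP against 11.03 on Pam3CSK4-MDP, with a second probe set at −0.06) and Stab2 (2.21-fold, 0.97 with 32 added to the linear values), and 1 lower, Thbs1 (2.55-fold). The uptake receptor gene Mertk was short of 2-fold at 0.32.

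The metabolic lists held 3 or 4 genes each past 2-fold, all of them lower. For sterol and fatty acid metabolism 3 of 24 were lower and none higher, around a median of −0.07. They were the desaturase gene Scd1 (4.80-fold, 6.78 on MDP-MDP against 9.04 on Pam3CSK4-MDP), the fatty acid binding protein gene Fabp4 (2.91-fold, but −0.48 without less specific probe sets) and the sterol receptor gene Nr1h3 (2.16-fold). For glycolysis and the hypoxia response 4 of 20 were lower, none higher and 19 on the lower side (median −0.39), led by the oxidoreductase gene Ero1a (2.62-fold) and the hydroxylase gene Egln3 (2.26-fold, −0.91 as the mean of its probe sets). For oxidative stress and iron 4 of 16 were lower and none higher (median −0.09), with Sod2, the mitochondrial superoxide dismutase, 5.13-fold (11.69 on MDP-MDP against 14.05 on Pam3CSK4-MDP) and Hmox1, the haem-degrading enzyme, 2.65-fold lower (12.42 on MDP-MDP against 13.83 on Pam3CSK4-MDP). Survival and apoptosis genes gave 4 lower and 1 higher of 16 (median −0.05). The death receptor gene Fas was 3.20-fold and the caspase-8 inhibitor gene Cflar 2.66-fold lower. The 5 probe sets of Cflar above the array median gave −1.51 to −0.32, and the mean of its probe sets was −1.01. Antigen presentation was nearly level, with 1 of 8 class II genes lower (H2-Ab1, 2.11-fold, median 0.01) and 1 of 10 class I genes lower (Tap1, 2.31-fold, with −0.44 as the mean of its probe sets, median −0.16).

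For most of the 722 genes MDP-MDP cells stood near the unstimulated level and Pam3CSK4-MDP cells away from it. MDP-MDP had 71 genes at least 2-fold above unstimulated (0.39%) and 7 below (0.0385%), against 506 above (2.78%) and 471 below (2.59%) on Pam3CSK4-MDP. Of the 374 higher genes, 368 (98.4%) were within 2-fold of unstimulated on MDP-MDP, with a median of −0.09, and 307 (82.1%) were at least 2-fold below it on Pam3CSK4-MDP, with a median of −1.40. Of the 348 lower genes, 303 (87.1%) were within 2-fold on MDP-MDP (median 0.30), and 333 (95.7%) were at least 2-fold above on Pam3CSK4-MDP (median 1.87). The remaining 45 lower genes were at least 2-fold above unstimulated on MDP-MDP too, as described for Saa3. These positions use the arrays that chose the genes and are a description.

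**Figure D3:**
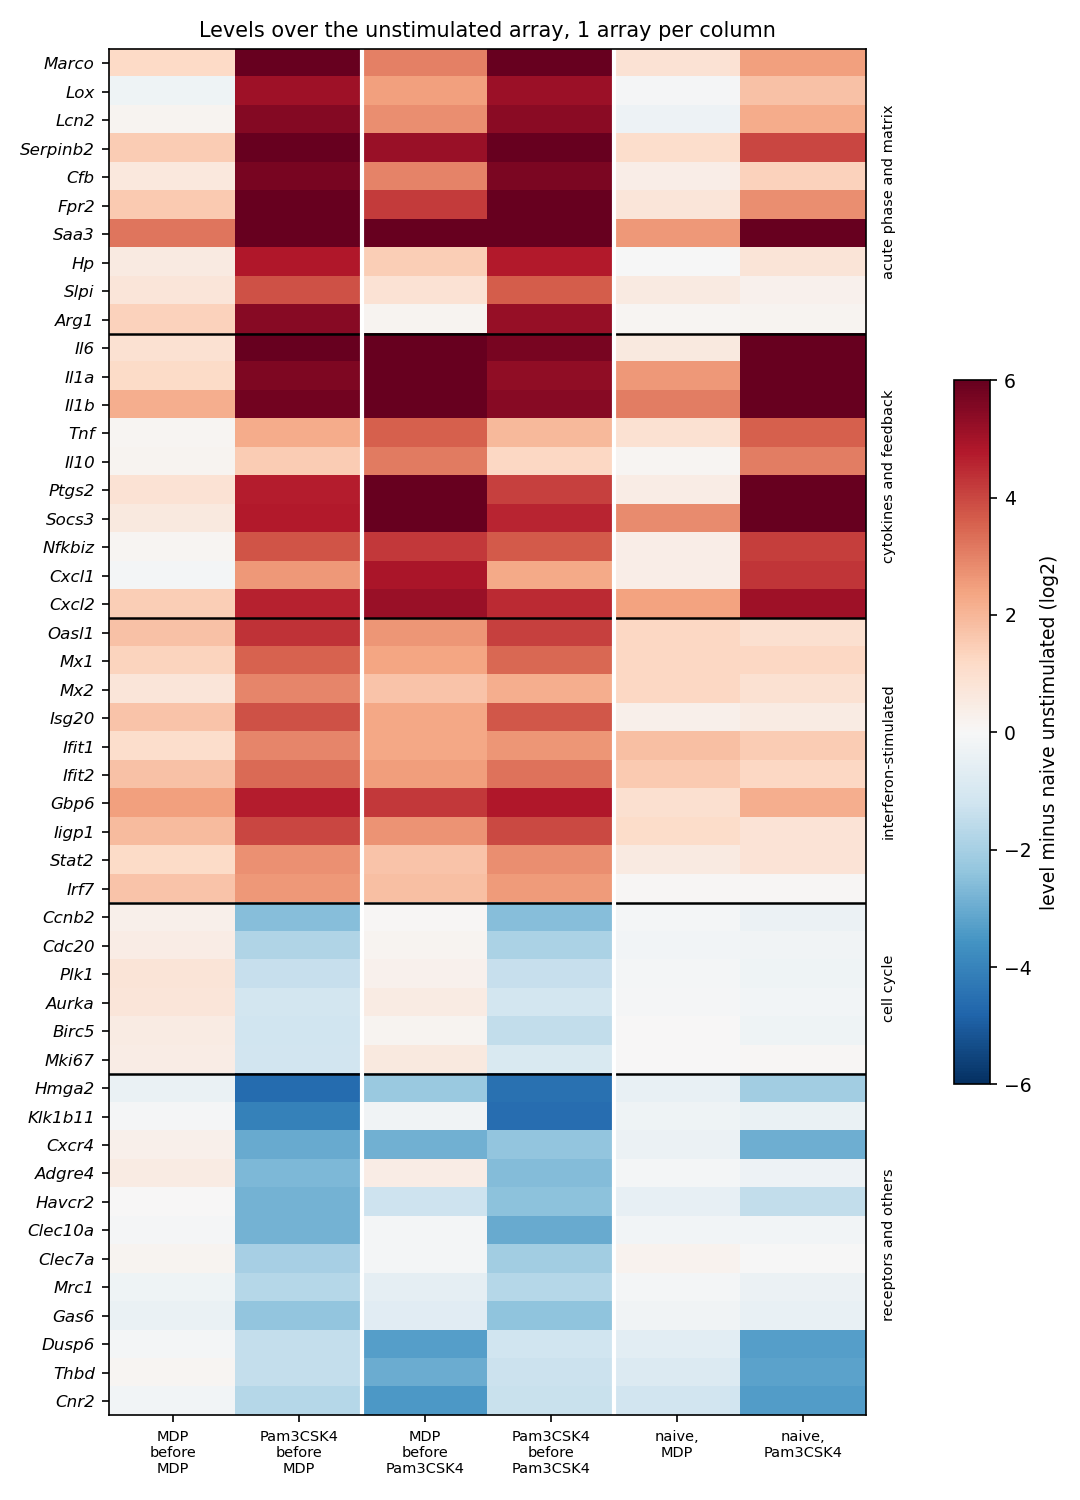
Level minus the unstimulated level (log2, colour) of 48 named genes in 5 blocks on the 6 other arrays, 1 array a column, with red above and blue below unstimulated. Colours use the deposited values, those below the array median included, and are at full strength from 6 on. The first column, MDP-MDP, is pale for nearly all genes outside the interferon-stimulated block, with Saa3 and Il1b among the exceptions, and the second, Pam3CSK4-MDP, resembles that of Pam3CSK4-Pam3CSK4. Arg1 is deep red on both Pam3CSK4-pretreated arrays, pale red on MDP-MDP and white on the others.

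Genes chosen on the naive arrays, which the comparison does not use, showed the same division. Of the 40 genes that MDP induced at least 3-fold in naive cells (0.22% of all genes), 29 (72.5%) were at least 2-fold lower on MDP-MDP than on Pam3CSK4-MDP, 1 was higher and the median was −1.83. The higher one was Cd83. Relative to unstimulated cells the 40 genes had a median of 0.90 on MDP-MDP and 2.62 on Pam3CSK4-MDP. These 2 medians use the unstimulated array, which also served to choose the genes. Of the 232 genes that Pam3CSK4 induced at least 3-fold in naive cells (1.28%), 122 (52.6%) were lower, 3 higher, and the median was −1.06. The MDP-induced and Pam3CSK4-induced sets share genes, among them Il1a, Socs3 and Cxcl2, and are not separate evidence. Of the 110 genes that Pam3CSK4 lowered at least 3-fold (0.605%), 47 (42.7%) were higher, 1 lower, and the median was 0.89, with Hmga2, Cxcr4, Cytip, Gadd45a and Gpr183 in front.

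The same pretreatments followed by Pam3CSK4 gave a comparison that shares no array with the one above. MDP-Pam3CSK4 minus Pam3CSK4-Pam3CSK4 was at least 2-fold higher for 438 genes (2.41%) and lower for 244 (1.34%). Over 18193 genes the 2 contrasts had a Pearson r of 0.37 and a Spearman rho of 0.32, as a description of genes that are not independent. Of the 374 higher genes, 310 (82.9%) were on the higher side with second Pam3CSK4 as well and 151 (40.4%) past 2-fold, which is 34.5% of the 438. Of the 348 lower genes, 229 (65.8%) were on the lower side and 102 (29.3%) past 2-fold, which is 41.8% of the 244. Marco was −6.03 with second MDP and −4.25 with second Pam3CSK4. Arg1 was −4.07 with second MDP and −5.07 with second Pam3CSK4, and Hp −4.25 with second MDP and −3.25 with second Pam3CSK4. On the other side Klk1b11 was 3.97 with second MDP and 4.36 with second Pam3CSK4, and Ccnb2 2.83 with second MDP and 2.66 with second Pam3CSK4.

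Other genes changed side. With second Pam3CSK4, 119 of the 348 lower genes and 63 of the 374 higher genes lay on the opposite side, and fewer were past 2-fold there. Of the 348 genes lower after MDP pretreatment with second MDP, 48 were at least 2-fold higher after MDP pretreatment with second Pam3CSK4, and 8 genes were the reverse. With values below the array median counted as that median, 46 and 8 were so. The 48 include Il6, at or below −4.70 with second MDP and 1.68 with second Pam3CSK4, and both interleukin 1 genes. Il1a was −4.49 with second MDP and 2.22 with second Pam3CSK4, and Il1b −3.62 with second MDP and 2.08 with second Pam3CSK4. Socs3 was −4.18 with second MDP and 2.28 with second Pam3CSK4, and Ptgs2 at or below −3.71 with second MDP and 2.65 with second Pam3CSK4. Tnf, Il10 and Cd40 are among the 48 too, with second-Pam3CSK4 differences of 1.64, 1.89 and 2.73. For none of these 8 genes was the level on MDP-Pam3CSK4 below that in naive cells with Pam3CSK4. The gap was largest for Il6, at 10.79 on MDP-Pam3CSK4 and 9.84 in those naive cells, and smaller for Ptgs2 and Il1a. Il1b, Socs3, Tnf, Il10 and Cd40 were nearly level on the 2 arrays. Tnf stood at 12.92 on MDP-Pam3CSK4 and 12.89 in those naive cells, and Cd40 at 12.80 on MDP-Pam3CSK4 and 12.71 in those naive cells. The naive sets turned in the same way. The 40 MDP-induced genes had a median of 1.40 with second Pam3CSK4, with 26 at least 2-fold higher and none lower, the 232 Pam3CSK4-induced genes a median of 1.30, with 143 higher and 9 lower, and the 110 Pam3CSK4-lowered genes a median of −0.95, with 2 higher and 49 lower.

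**Figure D4:**
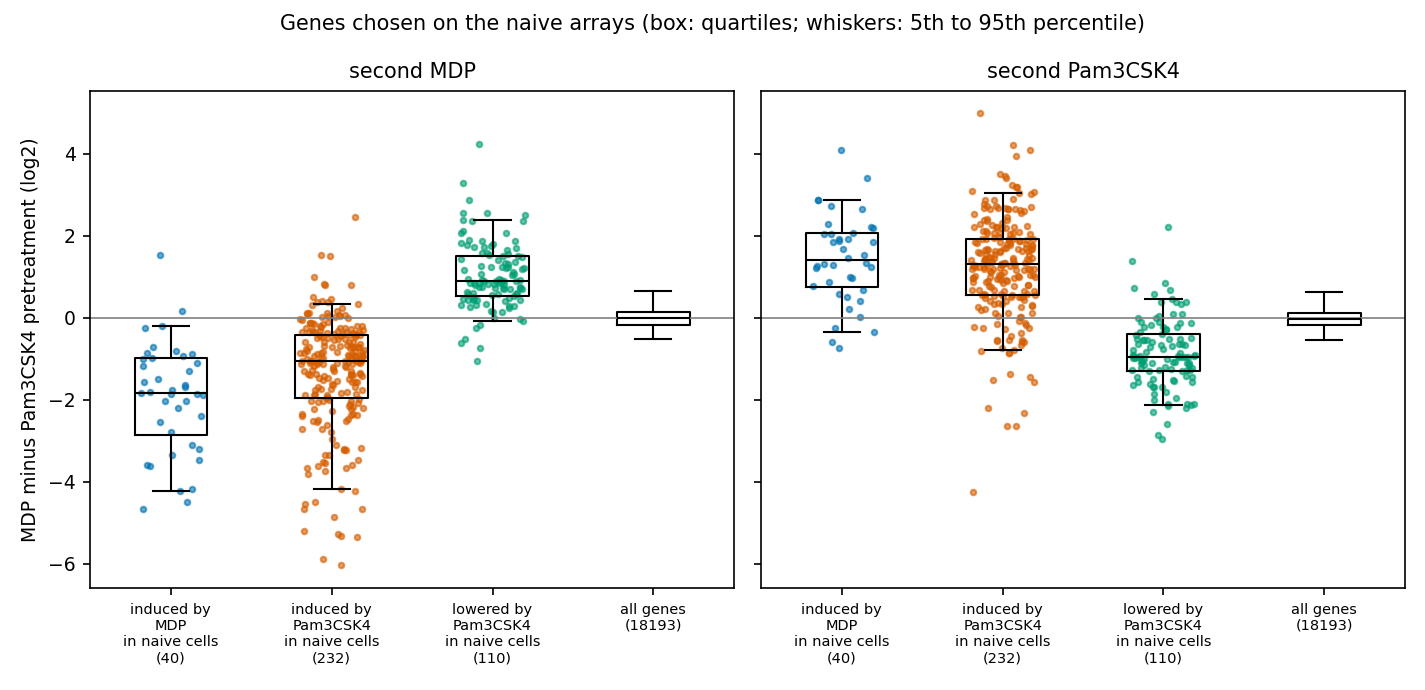
Differences between MDP and Pam3CSK4 pretreatment (log2, vertical axis) with second MDP (left panel) and second Pam3CSK4 (right panel), for 40 genes induced by MDP, 232 induced by Pam3CSK4 and 110 lowered by Pam3CSK4 in naive cells, beside all 18193 genes. Points are genes, boxes quartiles with the median, and whiskers run from the 5th to the 95th percentile. The medians of the 3 sets are −1.83, −1.06 and 0.89 on the left and 1.40, 1.30 and −0.95 on the right.

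By group, 11 of 24 cytokines were lower with second MDP, and 10 were higher and none lower with second Pam3CSK4. The NF-kB and feedback genes had 11 of 27 higher and 2 lower there. The chemokines had 3 of 23 higher and 2 lower there, with a median of 0.47. Saa3 at −0.74 and Ptges at −0.45 stayed on the lower side with second Pam3CSK4, short of 2-fold. The interferon-stimulated genes did not turn. None of the 28 was higher with second Pam3CSK4, 3 were lower, and the median was −0.50. For acute phase genes 2 of 23 were higher and 5 lower, and for cell cycle genes 9 of 30 were higher and 2 lower. The genes with the most different pair of contrasts also included Shisa3, near background on both arrays with second MDP but at 9.45 on MDP-Pam3CSK4 and 4.46 on Pam3CSK4-Pam3CSK4, and Itgb8, an integrin subunit gene, at least 3.01-fold lower with second MDP and at 2.07 with second Pam3CSK4. In the opposite direction stood Gcnt1, a glycosyltransferase gene, at 2.35 with second MDP and −1.09 with second Pam3CSK4, and C130050O18Rik at 0.56 with second MDP and at or below −2.85 with second Pam3CSK4.

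**Figure D5:**
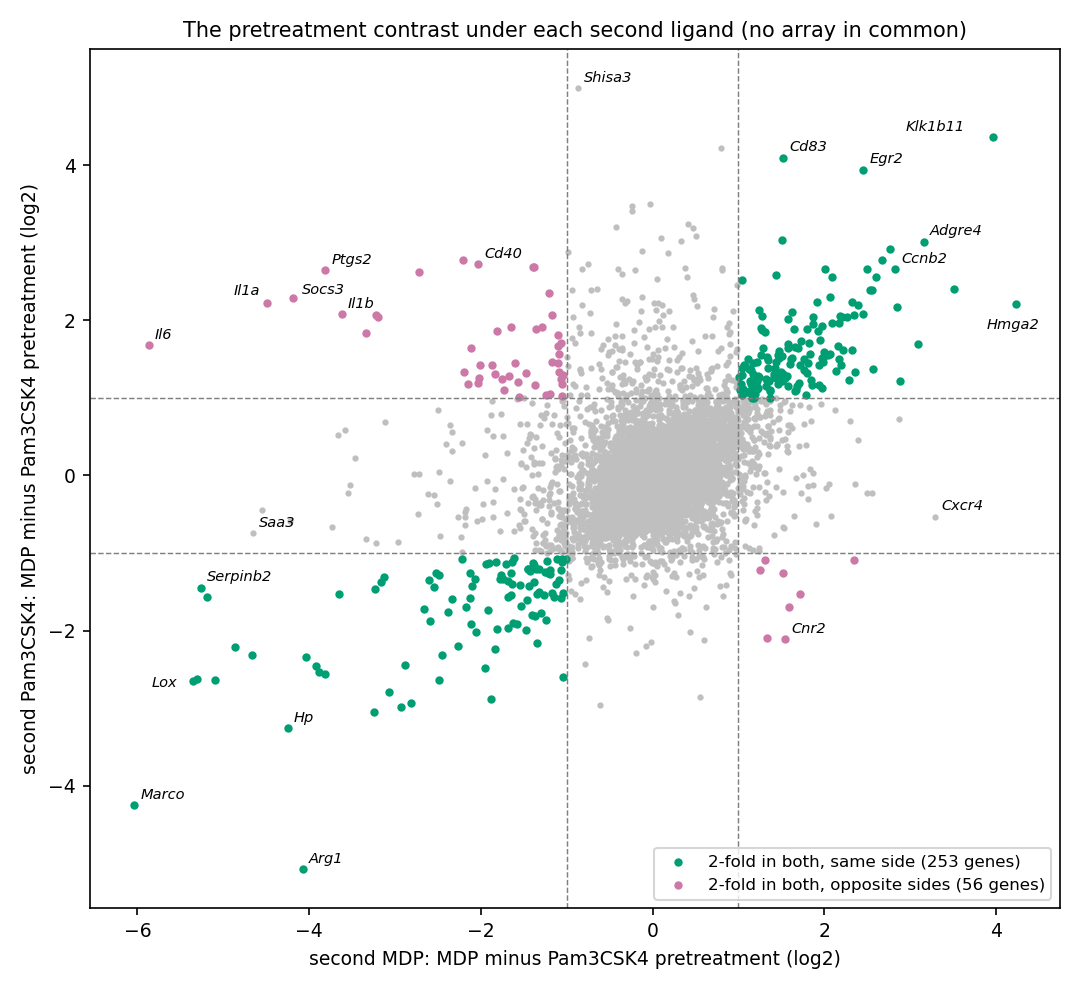
Each of 18193 genes by its difference between MDP and Pam3CSK4 pretreatment with second MDP (horizontal axis, log2) and with second Pam3CSK4 (vertical axis, log2), from the deposited values of 4 arrays, those below the array median included, with dashed lines at 2-fold. Green marks 253 genes past 2-fold on the same side and pink 56 genes past 2-fold on opposite sides. Marco and Arg1 lie at the lower left, Klk1b11 at the upper right, and Il6, Il1a, Socs3 and Ptgs2 at the upper left.

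After Pam3CSK4 pretreatment the second ligands gave nearly the same levels, and after MDP pretreatment they did not. Pam3CSK4-MDP and Pam3CSK4-Pam3CSK4 were 2-fold apart for 1 gene (0.0055%), Il6, which was 1.06 higher on the log2 scale on Pam3CSK4-MDP. MDP-MDP and MDP-Pam3CSK4 were 2-fold apart for 698 genes (3.84%), with 259 higher (1.42%) and 439 lower (2.41%) on MDP-MDP. The robust SD of the differences over genes was 0.111 for the first pair and 0.190 for the second, beside 0.237 for MDP-MDP minus Pam3CSK4-MDP. No array holds either pretreatment without a second ligand, so the level just before the second ligand is not known.

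The 2-fold threshold does not separate classes of genes. At 3-fold 109 genes were higher (0.599%) and 144 lower (0.792%), and at 1.5-fold 1098 were higher (6.04%) and 749 lower (4.12%). Kif4, Gatm and Iars stood just inside it on the higher side and Endod1, Gpr137b and Deptor just outside. On the lower side Aoah, Bclaf1 at −1.01 and Scarf1 at −1.01 were just inside and Samsn1, Igsf6 and Stfa3 just outside, and Stfa3 was below the array medians. Each of the 6 genes just inside fell short of 2-fold under at least 1 alternative processing. For genes past 2-fold with more than 1 probe set above the array median, all sets were past 2-fold for 79 of 171 higher genes and 93 of 151 lower genes, and all were on the same side for 147 of the higher and 147 of the lower genes.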

How the data were processed

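Total RNA of 7 BMDM cultures was measured on Affymetrix arrays, 1 array per group, and every label carries the replicate number 2. The deposited values are log2 expression per probe set, made with affy and RMA according to the submitters' processing notes, in versions not given in the sources used here. They ran from 2.95 to 15.1 over 45101 probe sets, and array medians were 5.48 (MDP-MDP), 5.53 (Pam3CSK4-MDP), 5.50 (MDP-Pam3CSK4), 5.54 (Pam3CSK4-Pam3CSK4), 5.55 (naive with MDP), 5.54 (naive with Pam3CSK4) and 5.50 (unstimulated). Of scale, centring and direction none was unknown.

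The platform table gave 34945 probe sets 1 symbol, 932 several and 9160 none, beside 64 controls, and 34741 of the first matched the RefSeq gene table. All 34945 probe sets with 1 symbol, matched or not, gave 18193 genes. Differences were taken between single arrays without a test, with the study's 2-fold threshold and, for genes induced in naive cells, its 3-fold one. Folds are back-transformed differences. A value below its array median was counted as that median and the fold is then given as "at least", and where both values were below it no fold is given. Counts and list medians use the deposited values.

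There were 25 gene lists of 577 genes, 523 of them measured, and 7 marker lists of 71 genes, 63 of them measured. The members and lists were chosen with earlier results of these data known. Named are the 15 highest and 15 lowest genes, up to 6 members per list past 2-fold and up to 2 others, a panel of macrophage activation genes, the 8 highest and 8 lowest by the difference of the 2 pretreatment contrasts, and the 3 genes on either side of the threshold in each direction. Mpo and Ltf are markers, and were named after their values were seen. Promoters of 300 bases came from RefSeq (GRCm38.p6), and a gene counted as holding a motif if any of its windows did.

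Alternatives were centring on array medians or housekeeping genes, cyclic loess, averaging a gene's probe sets, using only its more specific probe sets, filters at the array median or 75th percentile, counting low values as the median, adding 32 to the linear values, and thresholds of 1.5-fold and 3-fold. A simulated comparison of 18193 genes was built on the Pam3CSK4-MDP levels, without MDP-MDP. Its spread was that of Pam3CSK4-MDP minus Pam3CSK4-Pam3CSK4, the closest pair (robust SD 0.111, against 0.237 for MDP-MDP minus Pam3CSK4-MDP). Only genes well above the array median were shifted. There 0 of 50 genes raised 1.5-fold passed 2-fold, and all 50 of those lowered 3-fold, raised 4-fold or lowered 8-fold did. This checks the calculation only, not genes near background or the error of the real comparison. Python 3.11.15, numpy 2.4.6, pandas 2.3.3, scipy 1.17.1, matplotlib 3.10.9, R 4.3.3 and limma 3.58.1 were used.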

Additional observations from a re-analysis of the deposited data

Results flagged for a closer look

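The pretreatments differed at least 2-fold in opposite directions under the 2 second ligands for 56 genes. With second MDP 48 of them were at least 2-fold lower after MDP pretreatment and with second Pam3CSK4 at least 2-fold higher, and 8 were the reverse. The difference between the contrasts was not tested, since each rests on a single array per group. Subtracting the second-Pam3CSK4 contrast from the second-MDP contrast gave −6.71 (log2) for Il1a, −6.46 for Socs3, −5.70 for Il1b and −5.33 for Cxcl1. For Il6, Ptgs2 and Itgb8 the MDP-MDP value lay below the array median, and with that median in its place the result was at or below −6.37 for Il6, −6.36 for Ptgs2 and −3.66 for Itgb8. It gave 3.66 for Cnr2, 3.45 for Gcnt1, 3.43 for Dusp6 and 3.28 for Thbd, and at least 2.72 for Mex3b, which was below the array median on MDP-Pam3CSK4. Dusp6 and Thbd were both lower in naive cells given Pam3CSK4 than in unstimulated cells.

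Signal was also seen in probe sets outside the comparisons. Of 10092 probe sets with no single gene symbol, 2604 had the brighter value above the array median, and 54 of these were at least 2-fold higher (2.07%) and 42 lower (1.61%) on MDP-MDP than on Pam3CSK4-MDP. The 3 control probe sets for 18S ribosomal RNA had a median 0.72 (log2) above unstimulated on MDP-MDP and 0.47 above it on Pam3CSK4-MDP. It was 2.35 above on Pam3CSK4-Pam3CSK4 and 0.49 above on MDP-Pam3CSK4. Taken within each probe set, MDP-MDP minus Pam3CSK4-MDP had a median of −0.18. This has the other sign from the 2 array medians, so no direction is given. The part of ribosomal RNA in the differences was not tested.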

How the results depend on the processing

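No paired analysis was possible because every label carries the replicate number 2, so the groups share a single number, and no result comes from a test. Leaving out a replicate was not possible with 1 array per group. Of 320 alternative values of counts over all genes, shares and list medians 18 moved, and of 450 counts of list members past 2-fold 11 moved by more than 1.5 times or to or from 0. Of these 11, the cytokines had 7 lower and the prostanoid, arginine and nitric oxide list 3 lower with the 75th percentile filter, and the other 9 concern counts of at most 2. With a 3-fold threshold 109 genes were higher and 144 lower, and with 1.5-fold 1098 and 749. The share of lower genes also past the threshold with second Pam3CSK4 became 23.6% at 3-fold and 37.9% at 1.5-fold. At 3-fold 32.3% of the Pam3CSK4-induced genes were past the threshold on the lower side and 21.8% of the Pam3CSK4-lowered genes on the higher side. At 1.5-fold these shares were 69.0% and 70.9%, and 90.0% for the MDP-induced genes. Requiring the brighter value to be above the array median moved the list medians of cytokines to −1.17 and of prostanoid, arginine and nitric oxide enzymes to −0.83. Requiring it above the 75th percentile gave −1.84 for chemokines, 0.31 for immediate early factors and phosphatases, −0.59 for the prostanoid list, −0.48 for the matrix list, and 64.1% for the Pam3CSK4-induced genes. With fewer genes kept by these filters, the medians are over other members. Of 1835 alternative values of 207 named genes 1767 kept side and threshold, 37 in 24 genes fell short of 2-fold, 30 in 17 genes came to pass it, and 1 reversed, Birc3 without less specific probe sets (0.013). Centring on housekeeping genes, the largest shift of all genes, moved their median to −0.08. Levels near the array median, such as those of Il6 and Saa1 on MDP-MDP, are limited by background signal.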
